A study of Homo sapiens with 27 samples.

Results

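Acetylated H2A.Z (acH2A.Z) was mapped by chromatin immunoprecipitation and sequencing (ChIP-seq) in HL-60 cells given siRNA against MYC (siMyc) and in HL-60 cells given the siRNA labelled siNTC. Every deposited peak on chromosomes 1 to 22 was taken, which gave 14264 peaks of 14528 in the siMyc list and 16908 of 17353 in the siNTC list. These 31172 peaks are part of 147645 peaks in the 10 ChIP lists of the series, which holds 27 libraries in all. HL-60 is an established human promyelocytic leukaemia line. Both groups were the same line, and no drug is named in the treatment label of either. The labels state neither the time after siRNA nor its sequence. Each group was 1 library, so no difference below has a replicate check, no test was run, and "higher" and "lower" describe these 2 libraries.

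H2A.Z is a variant of histone H2A that sits in the nucleosomes around gene start sites and enhancers. The SRCAP and TIP60/p400 complexes deposit it, and TIP60, encoded by KAT5, acetylates it. The acetylated form marks active promoters. MYC binds DNA with MAX, mostly at active promoters, and recruits acetyltransferase complexes, TIP60 among them, through the adaptor TRRAP.

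The siMyc list had fewer, narrower and weaker peaks than the siNTC list. Peak width had a median of 637 bp in siMyc cells (quartiles 500 and 1020 bp), against 1308 bp in siNTC cells (740 and 1847 bp). Peaks at the narrowest width, 500 bp, made up 44.3% of the siMyc list and 18.4% of the siNTC list. The peaks covered 12.4 Mb in siMyc cells and 23.6 Mb in siNTC cells. A peak's normalized tag count, the sequenced tags in it after scaling to a common library size, had a median of 15.4 in siMyc cells and 103 in siNTC cells. The upper quartile was 29.0 tags in siMyc cells and 343 in siNTC cells. Only 240 siMyc peaks (1.68%) held 100 tags or more, against 8530 siNTC peaks (50.4%). In bulk chromatin, fewer cells with the mark and less of it per cell cannot be told apart. Whether the immunoprecipitation itself was equally efficient in both libraries was not tested.

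**Figure D1:**
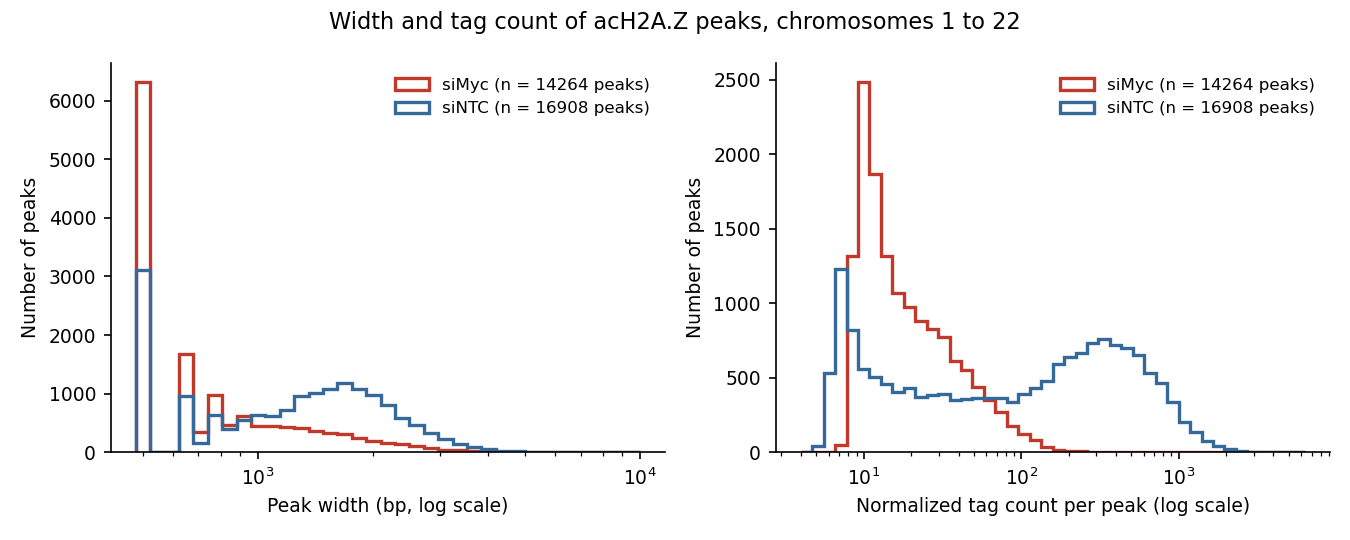
Number of acH2A.Z peaks by width in bp (left) and by normalized tag count (right), both on log axes, for the siMyc list (red, 14264 peaks) and the siNTC list (blue, 16908 peaks). Tag counts formed 2 groups in the siNTC list, near 8 and above 100, and in 1 group at the low end in the siMyc list.

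How the tags were scaled bears on every level given here. The headers give no scale, and tags per 10000000, the usual HOMER setting, was assumed in both lists. On that scale the peaks together held 3.50% of the siMyc tags and 39.3% of the siNTC tags. In the siMyc list the control had been scaled to the immunoprecipitate, whose size comes out at 12487266 tags. In the siNTC list the immunoprecipitate had been scaled to the control, whose size comes out at 18703670 tags. The weakest peaks of both lists held 8.5 tags before normalization, a count that in the siNTC list had been scaled to the control. In normalized tags the weakest peak held 6.83 in the siMyc list and 4.57 in the siNTC list. The level under which no peak was listed thus differed between the lists. The part of depth and scaling in the comparison was not tested.

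The control tags under the peaks also differed between the lists. The peaks of the 2 lists are different stretches, so these values do not show that the control libraries themselves differed. At siNTC peaks the control held 2.25 tags per kb in the lowest decile of siNTC tag count and 30.3 in the highest. At siMyc peaks it held 2.40 tags per kb in the lowest decile of siMyc tag count and 5.57 in the highest. The authors' fold over control had a median of 6.17 in the siMyc list and 7.48 in the siNTC list, closer to each other than the tag counts were. Whether the control libraries account for part of the difference was not tested.

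Of the siNTC peaks, 8212 shared at least 1 bp with a siMyc peak and are called kept. The other 8696 had no siMyc peak (51.4% of siNTC peaks; exact 95% Clopper-Pearson interval 50.7 to 52.2, which like every interval here covers counting error only) and are called lost. In the siMyc list 8750 peaks shared bases with a siNTC peak, and 5514 peaks (38.7%, interval 37.9 to 39.5) had none. The siMyc peaks without a partner were the narrowest class, with a median of 500 bp and 10.7 tags, against 834 bp and 23.6 tags for siMyc peaks with one. Within 1000 bp of a gene start lay 6.53% of the siMyc peaks without a partner and 54.1% of those with one. No start site on chromosome 8 was available for this count. Lost siNTC peaks held a median of 113 tags and kept ones 91.2, while the lower quartile was 9.47 tags for lost and 24.7 for kept peaks. The peaks absent from siMyc cells thus included both weak and strong ones.

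The share of siNTC peaks found again in siMyc cells did not follow their strength. It was 13.7% in the lowest decile of siNTC tag count (interval 12.1 to 15.4), and 81.2% in decile 4 (79.3 to 83.1), whose peaks held 22.1 to 47.5 tags. It was 43.2% in both decile 6 and decile 7, and 56.6% in the highest decile (54.2 to 58.9), whose peaks held 631 tags or more. Ranked by siMyc tag count instead, the share of siMyc peaks with a siNTC partner went up from 24.6% in the lowest decile to 98.4% in the highest. The strong siMyc peaks therefore nearly all lay on siNTC peaks, whereas the strong siNTC peaks were found again in siMyc cells in only 43.2% to 58.6% of cases in deciles 5 to 10.

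Overlapping peaks were joined into 8126 shared loci, 7433 of them with 1 peak of each list and 600 with 2 siMyc peaks under 1 siNTC peak. Across them the median of log2(siMyc/siNTC) was -1.45 for tags in total (quartiles -3.75 and 0.12) and -0.87 for tags per base (-2.60 and 0.12). Width had a median log2 ratio of -0.54. At least 2-fold lower per base in siMyc cells were 3958 loci (48.7%), and at least 2-fold higher were 54 (0.665%). The ratios formed 2 groups, and 4114 loci (50.6%) lay within 2-fold while 1370 (16.9%) were at least 8-fold lower. After centring on the median, 3180 loci were at least 2-fold lower and 1987 at least 2-fold higher, so the share of higher loci among those past 2-fold was 38.5% after centring and 1.35% before.

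The ratio followed siNTC strength closely. In the lowest decile the median per-base log2 ratio was 0.54, in decile 4 it was 0.08, in decile 6 it was -1.57, and in the highest decile it was -3.58. Tags per kb at shared loci stayed within a narrow band in siMyc cells, with medians of 20 in the lowest decile and 31.2 in the highest, while in siNTC cells they were 13.7 in the lowest and 376 in the highest. All 956 loci of the highest decile were at least 2-fold lower per base in siMyc cells, and none of the 220 of the lowest decile was. The deciles are cut on siNTC tags, which are also the divisor, so part of this slope is built in. The acH2A.Z list of DMSO-treated cells set over the same siNTC peaks gave a slope of the same direction, with a median per-base log2 ratio of 2.17 in the lowest decile and -1.58 in the highest. No DMSO peak was listed under 17.1 tags or 25.9 tags per kb, while siNTC peaks of the lowest decile held 4.57 to 7.77 tags. The high ratio in that decile is therefore largely built in. The authors' fold over control was lower in siMyc cells too in the highest decile, at a median of 5.52 against 13.1 in siNTC cells, and was 7.21 against 6.10 in the lowest.

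**Figure D2:**
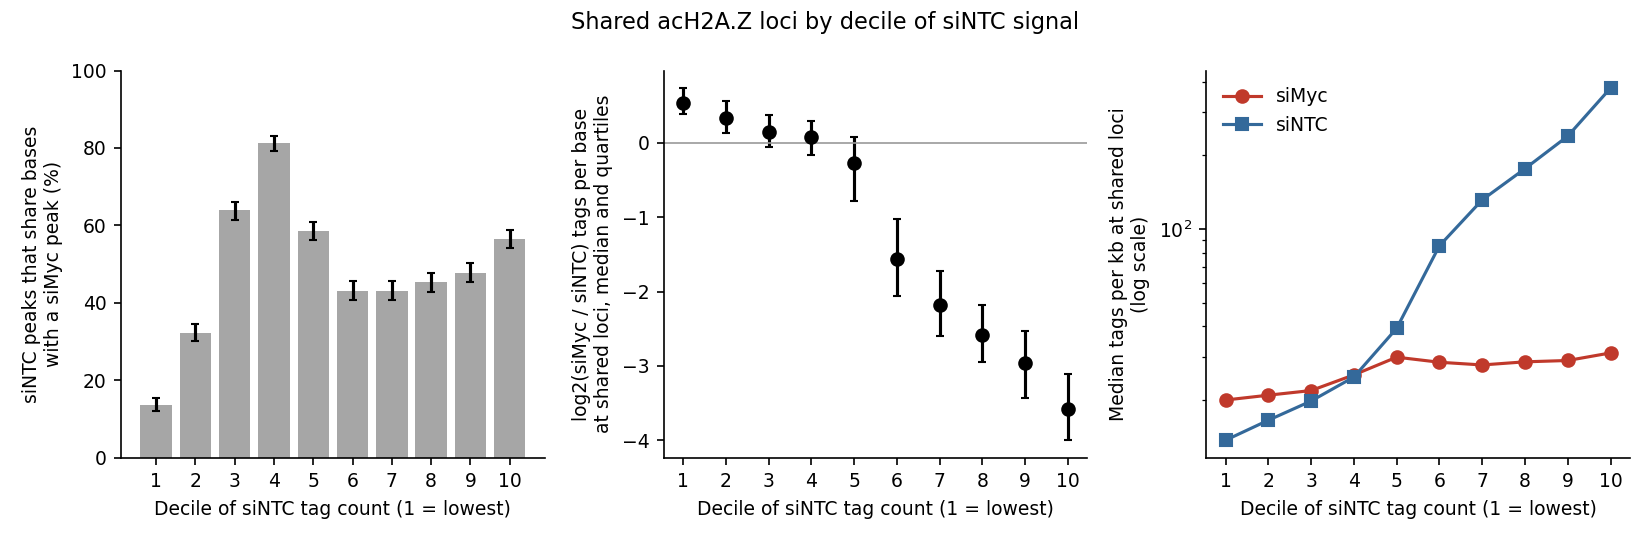
By decile of siNTC tag count (1 is the lowest): percent of siNTC peaks that share bases with a siMyc peak, with exact 95% intervals (left), log2(siMyc/siNTC) of tags per base at shared loci as median and quartiles (middle), and median tags per kb at shared loci on a log axis for siMyc (red circles) and siNTC (blue squares, right). The kept share peaks at 81.2% in decile 4, and siMyc tags per kb stay between 20 and 31.2 while siNTC tags per kb reach 376.

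At strong start sites the siMyc peaks lay beside the start and not over it. Start sites under a siNTC peak were split into quintiles by the tags of that peak. In the lowest quintile, 72.2% of the siMyc peaks whose edge came within 1500 bp of a start spanned it (interval 70.1 to 74.3), against 12.2% in the highest quintile (10.7 to 13.9). The distance from siMyc peak centre to start had a median of 309 bp in the lowest quintile and 918 bp in the highest. In the highest quintile 54.7% of the siMyc peak centres lay more than 250 bp upstream and 40.3% more than 250 bp downstream. Counted by start site, a siMyc peak spanned 8.44% of the starts in the highest quintile and 54.0% in the lowest. The acH2A.Z list of DMSO-treated cells spanned 82.6% of the starts in the highest quintile and 84.8% in the lowest. Total H2A.Z peaks spanned 17% of the highest quintile in siMyc cells and 19.7% in siNTC cells.

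**Figure D3:**
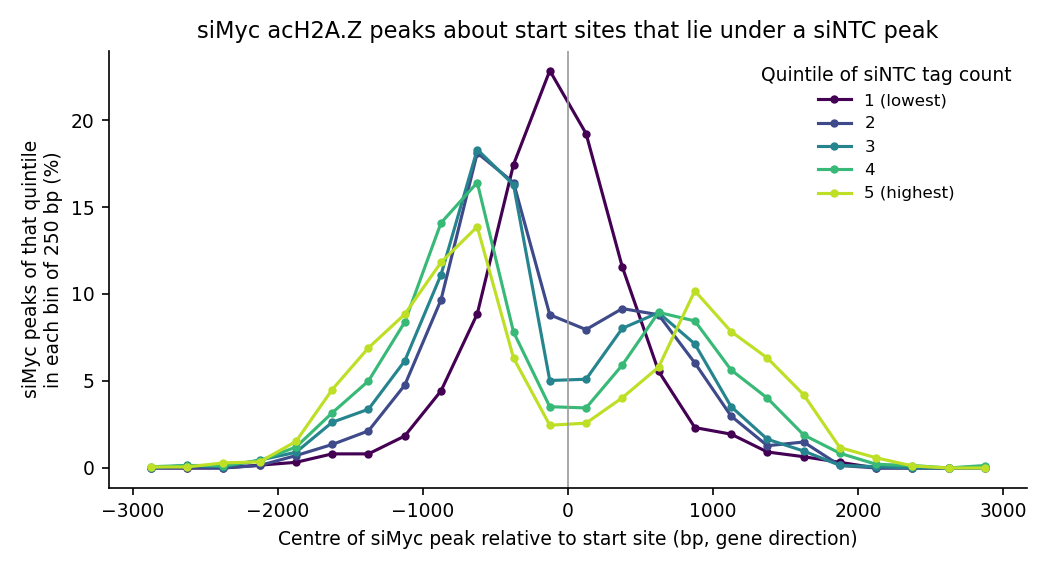
Percent of siMyc peaks, in bins of 250 bp, by the distance from their centre to a start site that lies under a siNTC peak, in the direction of the gene. Lines are quintiles of the siNTC peak's tag count: the lowest quintile has its top at the start, and the other 4 have a dip there and a shoulder on each side.

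Genes were assigned by peaks within 1000 bp of a RefSeq start site, which could be done for 26246 genes on 21 of the 22 chromosomes. Of 10907 genes with a siNTC peak at the start, 5724 also had a siMyc peak there and are called kept, and 5183 had none there (47.5%) and are called lost. For a gene, having no siMyc peak means none within 1000 bp of the start. Of the lost genes 243 (4.69%) had a siNTC start-site peak that shared bases with a siMyc peak farther out, and at the other 4940 it shared bases with none. At 120 of the kept genes (2.10%) the siMyc and siNTC start-site peaks shared no base. A gene's tags are the sum over all its start-site peaks. A siMyc peak alone was found at 221 genes, 1.44% of those without a siNTC peak. That count depends on the lists, and was 439 when peaks needed a fold of 8 or more over the control, and 728 with equal numbers of peaks. Among kept genes the median per-base log2 ratio was -2.12, and 4017 (70.2%) were at least 2-fold lower in siMyc cells. The share lost was 47.1% of protein-coding genes and 48.9% of long noncoding RNA genes.

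The promoters of the 4 genes at the ends of this comparison are printed to show how they differ in CpG content. ZCCHC2 had the most siNTC tags among lost genes, SOCS6 the lowest ratio among strong kept genes, WDR74 the highest, and PRMT5 the most siMyc tags among protein-coding gained genes. Each stretch is the 250 bases before the start in the gene's direction, from RefSeq on GRCh38.p14: chr18:62522775-62523024 on the plus strand for ZCCHC2, chr18:70288795-70289044 on the plus strand for SOCS6, chr11:62839591-62839840 on the minus strand for WDR74 and chr14:22929377-22929626 on the minus strand for PRMT5. Capitals mark CG dinucleotides.
ZCCHC2: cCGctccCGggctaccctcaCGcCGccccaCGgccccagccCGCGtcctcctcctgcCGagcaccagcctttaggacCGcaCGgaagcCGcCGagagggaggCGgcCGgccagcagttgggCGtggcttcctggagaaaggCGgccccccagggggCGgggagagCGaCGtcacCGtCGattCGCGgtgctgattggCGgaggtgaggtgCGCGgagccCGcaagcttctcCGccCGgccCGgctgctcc
SOCS6: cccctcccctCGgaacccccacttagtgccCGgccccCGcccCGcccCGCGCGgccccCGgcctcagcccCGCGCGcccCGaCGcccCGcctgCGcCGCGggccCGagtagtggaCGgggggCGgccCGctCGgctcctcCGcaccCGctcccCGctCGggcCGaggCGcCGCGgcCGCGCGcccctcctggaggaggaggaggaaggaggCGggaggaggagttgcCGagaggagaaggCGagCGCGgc
WDR74: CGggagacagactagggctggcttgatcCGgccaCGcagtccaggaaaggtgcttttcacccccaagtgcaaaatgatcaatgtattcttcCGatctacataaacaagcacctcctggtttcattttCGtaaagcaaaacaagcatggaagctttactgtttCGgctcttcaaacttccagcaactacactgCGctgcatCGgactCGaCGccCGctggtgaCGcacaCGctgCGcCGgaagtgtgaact
PRMT5: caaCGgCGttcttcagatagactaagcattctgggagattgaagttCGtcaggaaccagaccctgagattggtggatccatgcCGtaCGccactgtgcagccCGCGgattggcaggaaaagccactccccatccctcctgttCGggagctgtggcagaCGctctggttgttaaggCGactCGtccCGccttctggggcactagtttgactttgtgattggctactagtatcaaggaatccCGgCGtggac

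The ZCCHC2 stretch holds 30 CG dinucleotides and the SOCS6 stretch 38, while WDR74 holds 15 and PRMT5 14. Protein-coding genes as a whole were scored over 250 bases before to 50 after the start. CG dinucleotides had a median of 17 at gained genes, 25 at kept genes, 31 at lost genes and 8 at genes with a peak in neither list. GC content had a median of 59.3% at gained, 63.7% at kept and 69.3% at lost genes. Stronger siNTC peaks lay at more GC-rich promoters, but kept and lost genes also differed inside each quintile of siNTC tags. In the lowest quintile the median was 58.3% at kept and 63.0% at lost genes, and in the highest it was 70.7% and 74.0%. The letters CACGTG, the canonical E-box that MYC and MAX bind, read the same on both strands. They were in 11.1% of kept, 10.9% of lost, 11.6% of gained and 5.50% of peak-free promoters, against 8.67% of all 15101, and in none of the 4 printed stretches.

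Kept, lost and gained genes were mostly transcribed in untreated cells, and genes with no peak mostly were not. Nascent RNA of untreated HL-60 cells, from 1 library of 25167597 expected counts, was used as CPM (counts scaled to a common library total) per kb of effective length. Its median was 8.48 at kept, 6.79 at lost and 6.80 at gained genes, against 0.0766 at genes with no peak. At least 1 CPM was reached by 94.5% of kept, 88.0% of lost and 79.4% of gained genes. The cell type label was checked in the same library. Of 10 promyelocyte markers 9 reached 1 CPM, led by the granule enzyme MPO at 559 CPM, and ELANE was the exception at 0.16. Of 5 erythroid and 5 lymphoid markers none did, and of 7 epithelial and fibroblast markers 1 did, COL1A1 at 1.63.

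MYC itself kept its acH2A.Z peak, which was taken from its gene body, since start sites on chromosome 8 were not analysed here. It had 1518 tags in siMyc cells (chr8:127734580-127736325, GRCh38), against 3449 in siNTC cells (chr8:127734724-127736515), a per-base log2 ratio of -1.15. This was the strongest peak of the siMyc list, ahead of 391 tags for the next, and the highest ratio among the 956 loci of its decile. Total H2A.Z at MYC was 952 tags in siMyc cells and 1619.6 in siNTC cells, a per-base log2 ratio of -0.57. Input DNA of DMSO-treated cells held 8.26 times the reads per kb over MYC of the median gene, from 100 expected counts. MYC RNA in the siMyc cells was not analysed here, so the depth of the knockdown is not known from these files.

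Genes of the MYC network, whose products pair with MAX or its relative MLX, were divided between kept and lost. Of 10 with a siNTC start-site peak 7 were lost (70.0%, interval 34.8 to 93.3, which holds the 47.5% over all genes). MAX, the DNA-binding partner of MYC, held 22.9 tags in siMyc cells against 137 in siNTC cells. MXI1, a repressor that competes for MAX, held 29.0 tags in siMyc cells against 958 in siNTC cells. MGA, a MAX-binding scaffold, held 35.8 tags in siMyc cells against 827 in siNTC cells. The lost members were MYCL, MXD1, MXD4, MNT, MLX, MLXIP and MLXIPL, with 115 to 734 siNTC tags, and the siNTC peak of MLXIPL overlapped a siMyc peak of 12.2 tags farther out.

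Of the genes that encode H2A.Z and the complexes that place and acetylate it, 12 kept a start-site peak and 9 lost it (42.9%, interval 21.8 to 66.0, which holds the 47.5% over all genes). KAT5, the catalytic subunit of TIP60, held 118 tags in siMyc cells and 215 in siNTC cells, a per-base log2 ratio of -1.06. H2AZ1 held 45.2 tags in siMyc cells and 194 in siNTC cells (-1.43), and H2AZ2 held 31.2 in siMyc cells and 539 in siNTC cells (-2.80). INO80, the ATPase of a remodeller that acts on H2A.Z nucleosomes, held 48.6 tags in siMyc cells and 1016 in siNTC cells (-3.84). The ATPases EP400 and SRCAP, which exchange H2A.Z into nucleosomes, had no siMyc peak, against 286 and 479 tags in siNTC cells. EPC2, a TIP60 scaffold subunit, had no siMyc peak against 1685 tags in siNTC cells. The siNTC peaks of SRCAP and EPC2 overlapped siMyc peaks farther from the start, of 15.2 tags at SRCAP and 11.4 at EPC2. TRRAP has no start site in the table used, and over its gene body and 1000 bp each side it held 9.54 tags in siMyc cells and 809 in siNTC cells, in peaks that did not overlap.

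Known MYC target genes were divided between kept and lost, and the per-base log2 ratios of the kept ones ran from -4.49 to 0.10. Ribosome biogenesis and nucleolar targets lost 13 of 36 start-site peaks (36.1%, interval 20.8 to 53.8), and metabolic and cell cycle targets lost 11 of 31 (35.5%, 19.2 to 54.6). Both intervals hold the 47.5% over all genes. NPM1, which encodes the nucleolar chaperone nucleophosmin, had nearly equal peaks, with 27.2 tags in siMyc cells and 32.7 in siNTC cells (-0.20 per base). NCL, which encodes nucleolin, held 26.8 tags in siMyc cells and 535 in siNTC cells (-2.94). UBTF, the RNA polymerase I factor, held 17 tags in siMyc cells and 1524 in siNTC cells (-3.67), and NOP56, a box C/D snoRNP protein, had no siMyc peak against 633 tags in siNTC cells. ODC1, the first enzyme of polyamine synthesis, held 20.8 tags in siMyc cells and 1214 in siNTC cells (-4.05). CAD, which starts pyrimidine synthesis, held 32.9 tags in siMyc cells and 171 in siNTC cells (-1.70). LDHA, lactate dehydrogenase, held 27.1 tags in siMyc cells and 131 in siNTC cells (-1.64). CDK4, a G1 kinase, had no siMyc peak against 43.7 tags in siNTC cells. TERT, the telomerase reverse transcriptase, had none against 863.

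Among lists with at least 10 siNTC peaks, 4 had a share lost whose interval lay below the 47.5% over all genes. As for every list here, this is a description and not a test of the list. The lists were chosen with earlier results of these data known, many were looked at, and genes of a list can share a peak. Proteasome subunits lost 6 of 26 (23.1%, interval 8.97 to 43.6) and cytosolic ribosomal proteins 14 of 53 (26.4%, 15.3 to 40.3). Respiratory chain subunits lost 13 of 49 (26.5%, 14.9 to 41.1), and G2 and mitosis genes 9 of 32 (28.1%, 13.7 to 46.7). The tRNA synthetases with ATF4 genes lost 6 of 23 (26.1%, 10.2 to 48.4) and mitochondrial ribosomal proteins 16 of 48 (33.3%, 20.4 to 48.4), and these intervals hold 47.5%. Kept genes of these lists had higher ratios than all kept genes, with per-base log2 medians of -0.61 for the proteasome, -0.85 for cytosolic ribosomal proteins and -0.87 for the respiratory chain, against -2.12 over all kept genes. These genes also had weaker siNTC peaks, with median tags of 157 for the proteasome, 125 for cytosolic ribosomal proteins and 142 for the respiratory chain, against 269.5 over all genes with a siNTC peak. RPS29 held 114 tags in siMyc cells and 603 in siNTC cells, and RPL13 had no siMyc peak against 322 tags in siNTC cells. PSMC5 held 46.9 tags in siMyc cells and 308 in siNTC cells, and PSMD1 had no siMyc peak against 469.8. The replication-dependent histone genes, with 17 kept and 10 lost, had the ratio nearest to equal (-0.02) and the weakest siNTC peaks (median 15.8 tags). H1-4 held 39.8 tags in siMyc cells and 81.2 in siNTC cells. Histone genes are near-identical copies of each other, so tags between them are uncertain.

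Of the lists with at least 10 siNTC peaks, the highest share lost was among developmental regulators that polycomb proteins silence in most tissues. Of 38 with a start site 14 had a siNTC peak, against 10907 of 26246 over all genes. Of these 14, 12 had no siMyc peak (85.7%, interval 57.2 to 98.2), against 47.5% over all genes. GATA6, an endoderm transcription factor, had no siMyc peak against 1363 tags in siNTC cells. NEUROG2 and WT1 had none against 595 and 552. DLX1 held 23.8 tags in siMyc cells and 426 in siNTC cells, and HOXD11 held 33.2 in siMyc cells and 367 in siNTC cells.

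The intervals of 3 other lists, not taken by rank, hold the 47.5% over all genes. Cholesterol synthesis genes lost 9 of 14 peaks (64.3%, interval 35.1 to 87.2), NF-kappa-B and inflammatory genes 8 of 14 (57.1%, 28.9 to 82.3), and S-phase replication genes 21 of 40 (52.5%, 36.1 to 68.5). IDI1, an isoprenoid isomerase, had no siMyc peak against 425 tags in siNTC cells, and SREBF2, the master regulator of the pathway, held 20.4 in siMyc cells and 669.9 in siNTC cells, in peaks that shared no base. Kept NF-kappa-B and inflammatory genes had the lowest median per-base ratio of the lists with 5 or more kept genes (-3.33). SOD2, a mitochondrial superoxide dismutase, held 59.4 tags in siMyc cells and 1224 in siNTC cells. POLE, the leading-strand polymerase, had no siMyc peak against 554 tags in siNTC cells.

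Myeloid identity genes were divided. Among transcription factors and receptors of the lineage 7 were kept and 9 lost (56.2%, interval 29.9 to 80.2, which holds the 47.5% over all genes). MYB, which holds progenitors in an immature state, held 59.1 tags in siMyc cells and 1600 in siNTC cells (-3.44), and CEBPB and CEBPA had no siMyc peak against 1409 and 373 tags in siNTC cells. Of 9 promyelocyte granule genes 2 were kept, 2 lost and 2 gained. Over the MPO gene and 1000 bp each side lay 1 peak in each list, with 11.7 tags in siMyc cells and 6.34 in siNTC cells, and these did not overlap. Immediate early genes lost 10 of 20 (50%, interval 27.2 to 72.8), and their kept members held a median of 11.5 tags in siMyc cells. SGK1 held 124 tags in siMyc cells and 2352 in siNTC cells, but only a siNTC peak of 114.5 tags overlapped a siMyc peak, and the other, of 2237 tags, overlapped none. FOSL2 had no siMyc peak at the start against 1621 tags in siNTC cells, in a peak that overlapped a siMyc peak of 12.6 tags farther out. Apoptosis regulators lost 8 of 17 (47.1%, 23 to 72.2), beside 47.5% over all genes, among them BCL2L11, which encodes the death activator BIM, with no siMyc peak against 874 tags in siNTC cells. BCL2, which opposes it, held 103 in siMyc cells and 1205 in siNTC cells.

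**Figure D4:**
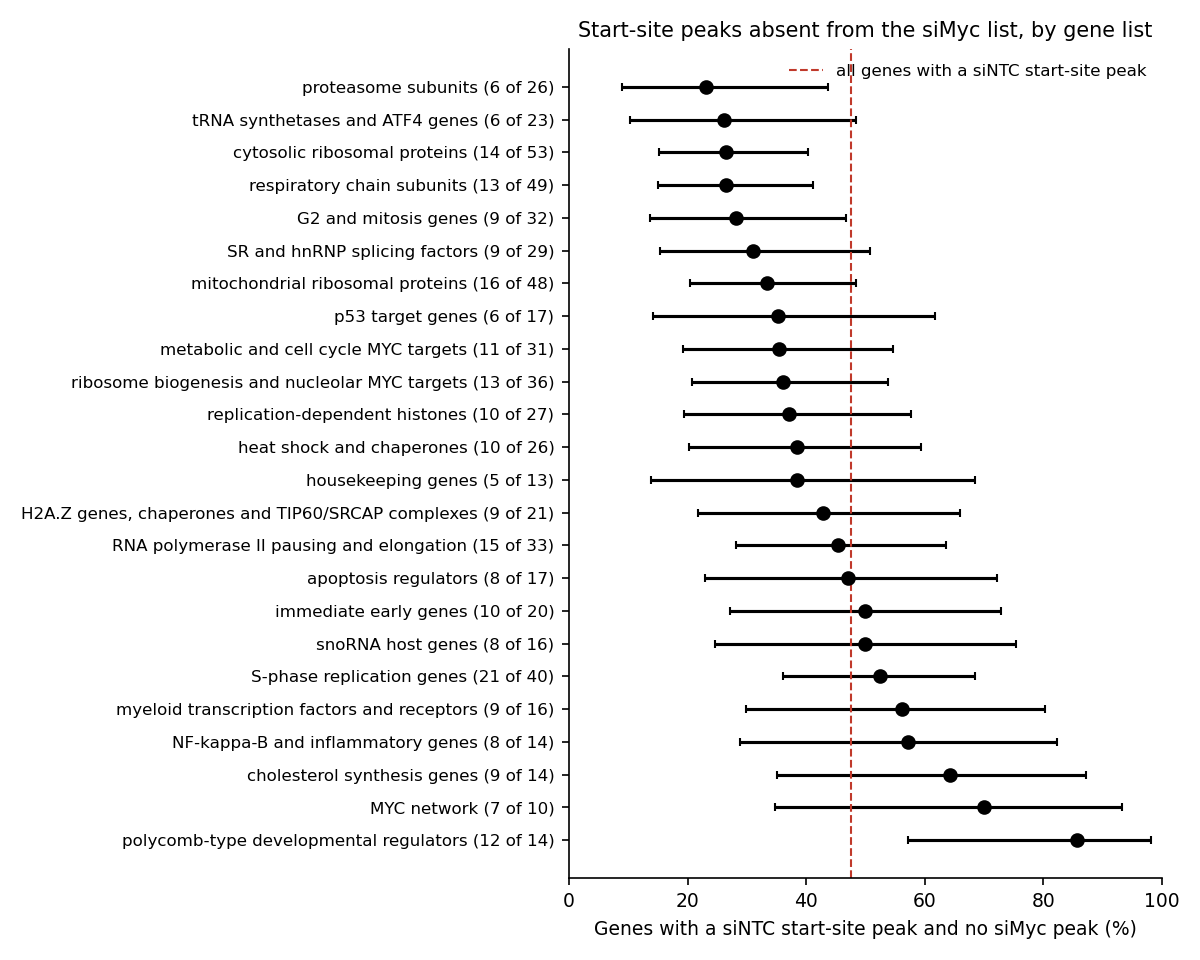
Percent of genes with a siNTC start-site peak that had no siMyc peak within 1000 bp of the start, for the lists with at least 10 such genes, with exact 95% intervals that cover counting error only. Numbers after each name are lost genes of genes with a siNTC peak, and the dashed line is the 47.5% over all genes. The lists run from 23.1% for proteasome subunits to 85.7% for developmental regulators.

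In the remaining lists kept and lost genes stood side by side. SR and hnRNP splicing factors lost 9 of 29, p53 targets 6 of 17, heat shock genes and chaperones 10 of 26, and RNA polymerase II pausing and elongation genes 15 of 33. The snoRNA host genes lost 8 of 16 and the housekeeping genes 5 of 13. The interval of each of these 6 lists holds 47.5%. HSP90AA1, a cytosolic chaperone, had no siMyc peak against 1511 tags in siNTC cells, and NELFA, a pausing factor subunit, had none against 1233. GAPDH held 54.1 tags in siMyc cells and 102 in siNTC cells, and ACTB, by its gene body, held 16.1 in siMyc cells and 86.2 in siNTC cells. Among markers of other lineages with a start site, 1 of 6 erythroid and 3 of 13 lymphoid genes had a siNTC peak. So did 2 of 6 epithelial and fibroblast genes, against 10907 of 26246 over all genes. These lists are too small to set apart from that share. Over all listed genes 244 of 626 were lost (39.0%).

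The 10 genes with the most siNTC tags among those without a siMyc peak within 1000 bp of the start held over 2000 siNTC tags each. ZCCHC2 had no siMyc peak there against 2653 tags in siNTC cells. The same was so for ATP9B, a member of the phospholipid flippase family, against 2334, and for CUL4A, a ubiquitin ligase scaffold that shares its peak with PCID2, against 2306. FOXO3, a forkhead factor of stress responses, had none against 2246 tags, and BCL11A, the repressor of fetal globin genes, had none against 2227 over 8881 bp. GALNT1, which starts O-linked glycans, had none against 2207, and KMT5B, a histone H4 lysine methyltransferase, had none against 2118. The others were LINC02939, PSMG2 and VAPA with LOC124904245. The siNTC peaks of 4 of the 10 shared bases with a siMyc peak farther from the start, which held 28.7 tags at ZCCHC2, 11.1 at LINC02939, 36.1 at FOXO3 and 59.5 at BCL11A. The siNTC peaks of the other 6 shared bases with no siMyc peak. Of these 10, 5 lie on chromosome 18, as do 4 of the 10 kept genes with the most siNTC tags. Chromosome 18 has 404 of the 16908 siNTC peaks.

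Start-site peaks found in siMyc cells alone were far weaker. The strongest, at the noncoding gene DLGAP1-AS2, held 168 tags in siMyc cells, and PRMT5, an arginine methyltransferase that shares its peak with PRMT5-DT, held 89.5. ING4, a reader of trimethylated histone H3, held 56.7 tags, NLRC4, an inflammasome sensor, held 52.5, IARS1, a tRNA synthetase, held 52.4, and APEX1 with OSGEP held 49.2. None of these had a siNTC peak within 1000 bp of the start. The others were LINC02542, ANXA2R-OT1, SSMEM1 and LOC124900784, between 51.8 and 126 tags.

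Kept genes with the strongest siNTC peaks all had far fewer tags in siMyc cells. LINC00938 held 109 tags in siMyc cells against 3725 in siNTC cells, and SMAD2, a transducer of TGF-beta signals, held 98.2 in siMyc cells against 3418 in siNTC cells. BICRAL, a subunit of a chromatin remodeller, held 175 in siMyc cells against 3179 in siNTC cells. KANSL1, a scaffold of a histone acetyltransferase complex, held 109 in siMyc cells against 2671 in siNTC cells. The others were PTGR3, BRF1, CABLES1, EIF4E3, TTC39C-AS1 and LOC401261, with 23.7 to 74.7 tags in siMyc cells against 2536 to 3197 in siNTC cells. Per base, SOCS6, a suppressor of cytokine signalling, was lowest of the kept genes with at least the median siNTC tags, at 28.0 tags in siMyc cells against 2040.4 in siNTC cells (-5.36). ECPAS, SP3, PEX7 and LGALSL-DT followed at -5.24 to -5.10. The highest of these genes were still lower in siMyc cells. WDR74, which acts in maturation of the large ribosomal subunit, held 121 tags in siMyc cells and 272 in siNTC cells (-0.62). NECTIN2, NARS1, RAB5IF and RNF114 followed at -0.79 to -0.92.

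**Figure D5:**
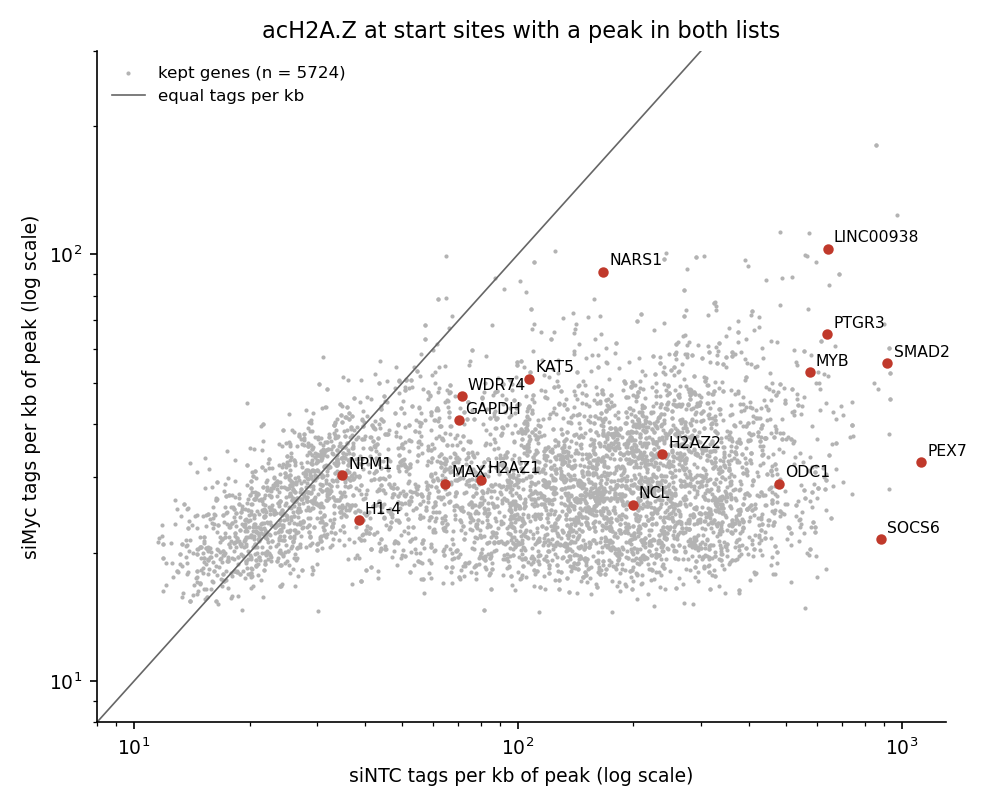
Tags per kb of peak at the start sites of the 5724 kept genes in siMyc cells (vertical) and siNTC cells (horizontal), both on log axes, with the line of equal values and some named genes in red. Genes with weak siNTC peaks, such as NPM1, lie near the line, and strong ones such as SOCS6 and PEX7 lie far below it.

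Away from the start sites used, the shared loci had a median near equality and a long lower tail. All shared loci of chromosome 8, MYC among them, count as away, since no start site was available there. Promoters of other genes without a listed start site can be among them too. Their part in the lower tail was not tested. The median per-base log2 ratio was 0.02 over 3670 such loci (quartiles -0.92 and 0.32). At least 2-fold lower in siMyc cells were 903 of them (24.6%), 308 (8.39%) were at least 8-fold lower, and 50 (1.36%) were at least 2-fold higher. They had median tags of 23.8 in siMyc cells and 28.3 in siNTC cells. It was -2.09 over 4456 loci at start sites, with median tags of 27.8 in siMyc cells and 234 in siNTC cells. Within deciles of siNTC signal the difference in kept share between the 2 kinds of site varied in size. The share was higher at start sites in every decile except decile 4, with 77.2% at start sites and 83.9% elsewhere. In decile 6 it was 45.7% at start sites and 37.3% elsewhere, and in the highest decile 56.6% and 56.5%. Of the 5 strongest siMyc peaks, 3 lay on chromosome 8 from MYC to chr8:129664456-129666542, and 1 lay 30426 bp from the start of MYB.

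Peaks found in both lists were mostly also in the DMSO acH2A.Z list, which has 16489 peaks. Of siMyc peaks 85.7% with a siNTC partner and 21% without one overlapped it. Of siNTC peaks 86.5% of the kept and 56.7% of the lost did. The siMyc list set over the DMSO list had a median per-base log2 ratio of -2.32 over 7862 shared loci, of which 87.5% were at least 2-fold lower in siMyc cells. The siNTC list set over the DMSO list had a median of -0.40 over 11666 shared loci (quartiles -1.72 and 1.04), of which 39.1% were at least 2-fold lower in siNTC cells. These comparisons share libraries with each other and with that of siMyc over siNTC, in which 48.7% of shared loci were at least 2-fold lower. The DMSO tags had been scaled to the control as the siNTC tags had, and the siMyc tags had not. The weakest DMSO peak held 17.1 tags, against 6.83 for the weakest siMyc peak. The part of scaling in these ratios was not tested. By chromosome, the share of siMyc peaks without a siNTC partner was 19.4% on chromosome 19 and 74.9% on chromosome 18, which had 762 siMyc and 404 siNTC peaks. Input DNA of DMSO-treated cells had 2.0 times the reads per kb over genes of chromosome 18 that the median chromosome had. The part of DNA copy number in that count was not tested.

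Total H2A.Z from the same knockdown had a median ratio near equality at its shared loci. The H2A.Z lists held 11076 peaks in siMyc cells and 6890 in siNTC cells, and 1487 siNTC H2A.Z peaks (21.6%) shared bases with a siMyc one. At the 1481 shared H2A.Z loci the median per-base log2 ratio was -0.01, against -0.87 at the acH2A.Z loci. At least 2-fold lower in siMyc cells were 1.35% of the H2A.Z loci. The H2A.Z peaks were mostly weak, with a median of 9.41 tags in siMyc cells and 10.7 in siNTC cells. Weak acH2A.Z loci were near equal too, at 0.08 in decile 4. The highest decile of H2A.Z peaks by tags began at 28.8 tags in siMyc cells and 93.1 in siNTC cells. In decile 4 of siNTC acH2A.Z signal, 35.5% of acH2A.Z peaks overlapped a siMyc H2A.Z peak and 12% a siNTC one. In the highest decile 39.1% overlapped a siMyc H2A.Z peak and 35.9% a siNTC one. Both H2A.Z lists were scaled as the siMyc acH2A.Z list was, and the siNTC acH2A.Z list was not. The difference between the antibodies was not tested.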

How the data were processed

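The 2 acH2A.Z lists, and for comparison the lists of H2A.Z in the same cells and of acH2A.Z under DMSO, were used as deposited, 1 library each, with peaks called per library. Per the submitters' processing notes the tools included Trim Galore, cutadapt, FastQC, STAR 2.5.2b and HOMER, and the build was GRCh38. Per the file headers each peak has a normalized tag count (signal), tag counts of sample and control, a score of the peak finder, a p-value and a fold over control. Every deposited fold is at least 4 and every deposited p-value at most 0.0001. Neither headers nor labels name the library that served as control. Deposited expected counts of nascent RNA and of input DNA were summed per gene.

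Peaks sharing at least 1 bp were joined into loci, and log2 ratios were taken of summed tags, in total and over summed width. Deciles were cut on siNTC tags. Genes were matched to RefSeq start sites on GRCh38.p14, an annotation of a later patch of the same build, within 1000 bp, and 965 of 966 listed names matched, 746 with a start site. Genes named are the 10 lost and kept with most siNTC tags, the 10 gained with most siMyc tags, the 5 highest and lowest ratios, the strongest kept and lost gene of each list, and a fixed set, with 1 gene per shared peak. Other genes named were chosen after their values were seen. The members and lists were chosen with earlier results of these data known. Counting was checked on simulated lists against bedtools. Python 3.11 with pandas, numpy and scipy was used. No replicate separates culture from library, so no p-value of difference was computed. Alternatives changed the overlap, the fold limit, the number of peaks, the locus definition, the measure, the window and the gene set.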

Additional observations from a re-analysis of the deposited data

Results flagged for a closer look

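The number of peaks moved in opposite directions for the acetylated and the total histone under the same knockdown. For acH2A.Z the siMyc list was the shorter one, with 14264 peaks in siMyc cells and 16908 in siNTC cells, a difference of -2644. For H2A.Z it held 4186 peaks more, with 11076 in siMyc cells and 6890 in siNTC cells. With 1 library a group the difference between the antibodies was not tested, and depth and scaling differed among the 4 libraries.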

How the results depend on the processing

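No paired analysis was possible because each group is 1 library and the labels give no replicate numbers. The ratios kept their negative sign under every alternative run, and 40 of the 71 recomputed values stayed within the counting interval or within 1.5 times the main count. With an overlap of at least 50% of the smaller peak the median log2 ratio was -0.71 per base and -1.27 in total, and the kept share was 11.4% in the lowest and 52.2% in the highest decile. This overlap does not enter the width and gene results, which are counted among the 40 though they could not change. With a fold over control of at least 8, which left 4131 siMyc and 7544 siNTC peaks, 1394 siNTC peaks were kept, 2725 siMyc peaks had no partner, the width difference was -1155 bp, the ratios were -0.21 and -0.47, the kept share of the highest decile was 11.8%, and 439 genes were gained. With the same number of peaks in both lists the width difference was -757 bp, the ratios were -1.05 and -1.70, the kept share of the lowest decile was 28.6%, and 728 genes were gained. Loci with 1 peak of each list gave ratios of -0.57 and -1.09. The authors' fold in place of tags gave -0.21 for both. Deciles of tags per base gave kept shares of 21.3% and 44.5%. Gained genes numbered 347 with a window of 5000 bp and 138 among protein-coding genes. Lost genes numbered 6686 with a window of 250 bp and 4950 with one of 5000 bp, against 5183. Listed genes lost numbered 335 and 207 with these windows, against 244. These counts stayed within 1.5 times the main count, but they depend on the window. The next alternatives were chosen after the data were seen. Either end of every RefSeq gene gave 535 gained genes. Peaks also in the DMSO list gave 1181 siMyc peaks without a partner, a width difference of -741 bp, ratios of -1.31 and -2.07, and 50% kept in the lowest decile. Lengthening siMyc peaks by 500 bp at each end gave 17.4% kept in the lowest decile. Leaving out chromosomes 8 and 18 moved none of the 10 results past these limits. The cause of these shifts was not tested. No peak was listed under 6.83 normalized tags in siMyc cells or under 4.57 in siNTC cells. Both lists depend on control libraries not used here.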

Other observations

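Gene families not described above, chosen after the other values were seen, lay on both sides of the 47.5% lost over all genes. Of the ZNF zinc finger genes, most of them transcriptional repressors, 334 of 498 had a siNTC start-site peak and 140 of these had no siMyc peak (41.9%), with a median per-base log2 ratio of -1.64 among the kept. The solute carriers (SLC) lost 77 of 162, the KCN potassium channel genes 7 of 12, and the WNT ligand and FZD receptor genes 5 of 7. Divergent transcripts that share a promoter with a coding gene lost 152 of 350, with a median of -2.54 among the kept, and antisense transcripts lost 256 of 535, with -2.28. Ubiquitin-specific proteases lost 17 of 40, with -2.97.

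The kept share also differed by chromosome, from 35.0% on chromosome 16 (interval 31.5 to 38.8) to 58.3% on chromosome 6 (55.1 to 61.5). On chromosome 18 the highest decile of peaks by tags began at 51.3 tags in siMyc cells and 1255 in siNTC cells, against 53.8 in siMyc cells and 563 in siNTC cells on chromosome 1.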
